A study of Rattus norvegicus with 9 samples.

Results

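Gene expression in the cerebral cortex was compared between rats aged 6 months and rats aged 12 months, using the 4 of the 9 count files whose age is unambiguous. The files of pool 1 and pool 3 stood for 6 months and those of pool 7 and pool 8 for 12 months. All animals were male BN rats of the substrain BN/SsNOlaHSD, received as weanlings, fed freely and kept behind a barrier, and each library was made from the pooled RNA of 2 rats after removal of ribosomal RNA. The file deposited for pool 2 (6 months) is identical in every line to that of pool 9 (12 months), so both were left out, and 3 further pools of rats aged 28 months were not part of this comparison. Of the 29516 Ensembl gene identifiers in each file, 15966 reached 5 reads in 1 or more of the 4 libraries and were tested.

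As background, 3 groups of transcripts carry most of the named differences. MHC class II molecules are pairs of alpha and beta chains that present peptides to helper T cells, and in the brain they are found mainly on microglia and on macrophages at its borders. Their promoters share short elements, the X and Y boxes, and Cd74, the invariant chain, escorts them through the cell. Small nucleolar RNAs (snoRNAs) guide the chemical modification of other RNAs, the box H/ACA class directing pseudouridylation and the box C/D class 2'-O-methylation. Their relatives in Cajal bodies act on spliceosomal RNAs. Most of them are cut out of the introns of host genes. Mitochondrial tRNAs are excised from long transcripts of the mitochondrial genome.

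The libraries held from 7215142 to 9196951 gene reads, and those of 6 months were the deeper ones. A single identifier without a name in the sources used here, ENSRNOG00000043866, took from 46.8 to 52.4% of them, which left from 3431328 to 4891332 reads for all other genes. The share of mapped reads that lay on no annotated gene was 57.1 and 54.0% in the 6-month libraries, and 47.5 and 50.6% in the 12-month libraries. Over the 11137 genes that averaged 20 reads or more, the median absolute log2 ratio between libraries of the same age was 0.22 at 6 months and 0.21 at 12 months, and it lay between 0.26 and 0.30 for pairs of different age. The labels give the pools as separate samples. With 2 pools per age an exact permutation test cannot go below 0.333, so each gene was judged by edgeR's quasi-likelihood test, which shares the spread over genes. Levels are gene reads scaled to library size after TMM normalization (CPM), and log2FC is 12 months minus 6 months with its standard error (SE).

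At a false discovery rate (FDR) of 0.05, adjusted with the Benjamini-Hochberg method over the 15966 genes, 184 genes were differentially expressed (DE), or 1.15% of those tested. The lower calls outnumbered the higher ones, with 137 genes (0.858%) lower and 47 genes (0.294%) higher at 12 months. The median log2FC was -2.03 among the lower genes and 1.24 among the higher ones, while over all genes tested it was -0.01. Of the lower genes 71 changed by more than 2 on the log2 scale, as did 10 of the higher genes. At an unadjusted p under 0.05 there were 2230 genes, 1086 higher and 1144 lower, so that the imbalance was seen in the adjusted calls only. Calls depended on depth. They made up 7.9% of the genes with a mean over 1000 reads, and 0.0822% of the 4865 genes with a mean under 20 reads. The libraries of the ages did not overlap for 22.4% of genes in the higher direction and 23% in the lower direction, which is the background against which such counts below are read.

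**Figure D1:**
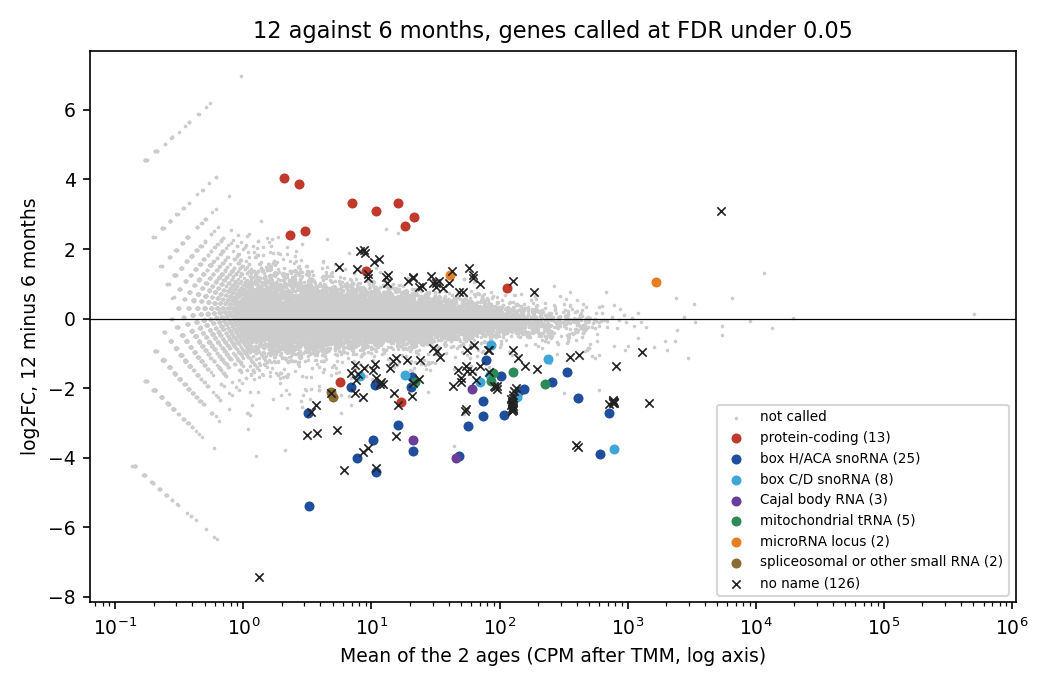
Log2FC (12 minus 6 months) of all 15966 genes tested against their mean CPM on a log axis. Grey points were not called, and coloured points and crosses are the 184 DE genes by class. Named snoRNAs, Cajal body RNAs and mitochondrial tRNAs lie below 0, and 11 of the 13 DE protein-coding genes lie above 0.

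Names could be paired with 167 identifiers, all of them tested. They come from tables of the study, most of which list transcripts or genes it had found to differ with age in these same samples, so that the share of named genes called is not independent evidence. Of the 167, 13 rose and 45 fell, 58 DE genes in all. The other 126 DE identifiers (34 higher and 92 lower) have no name in the sources used here. Among the 97 named protein-coding genes, 11 were higher and 2 lower, with a median log2FC of -0.01. Of these, 33 were named only in the study's table of differential promoter and coding sequence usage. The 33 held 0 DE genes by the quasi-likelihood test and by DESeq2 and 1 by the exact test. At an unadjusted quasi-likelihood p under 0.05 there were 10, and the median log2FC of the 33 was -0.03.

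MHC class II genes rose at 12 months. The list of class II genes had 10 symbols, of which 5 could be matched, and all 5 were higher, against 0.294% of all genes tested, with a median log2FC of 3.10. A symbol could be matched only where a table of the study names the gene, so the count is not independent evidence. Their summed level was 18.5 and 14.5 CPM in the 6-month pools against 103 and 159 CPM in the 12-month pools. The promoters of the 5 genes are shown because 4 of them share an element. Each is the stretch of 150 bases before the RefSeq start in assembly GRCr8, printed 5' to 3' on the gene's own strand, and capitals mark the Y box letters CTGATTGG and the X box letters GCAACNGAT, searched on both strands.
RT1-Da, chr20:4515265-4515414, plus strand: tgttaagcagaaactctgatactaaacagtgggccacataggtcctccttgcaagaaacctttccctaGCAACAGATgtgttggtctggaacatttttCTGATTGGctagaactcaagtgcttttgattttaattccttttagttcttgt
RT1-Db1, chr20:4560163-4560312, minus strand: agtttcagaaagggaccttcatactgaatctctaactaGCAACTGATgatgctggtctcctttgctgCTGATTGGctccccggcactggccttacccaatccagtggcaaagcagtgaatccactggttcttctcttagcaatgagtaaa
RT1-Ba, chr20:4576907-4577056, plus strand: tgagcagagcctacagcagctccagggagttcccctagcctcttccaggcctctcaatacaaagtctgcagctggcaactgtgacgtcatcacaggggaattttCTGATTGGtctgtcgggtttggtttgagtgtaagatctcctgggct
RT1-Bb, chr20:4604119-4604268, minus strand: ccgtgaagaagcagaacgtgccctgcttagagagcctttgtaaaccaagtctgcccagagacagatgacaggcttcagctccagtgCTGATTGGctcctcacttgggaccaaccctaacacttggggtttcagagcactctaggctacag
Cd74, chr18:56527056-56527205, plus strand: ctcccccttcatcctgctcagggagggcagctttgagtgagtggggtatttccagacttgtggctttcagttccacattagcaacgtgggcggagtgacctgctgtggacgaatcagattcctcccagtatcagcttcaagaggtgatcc

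CTGATTGG occurred once in each of the 4 RT1 promoters, between 83 and 46 bases before the start, while 2.45% of the 33469 rat promoters of this length held it. GCAACNGAT occurred in RT1-Da and RT1-Db1, upstream of the first element, and in 0.194% of all promoters. Neither run of letters was found in the window of Cd74. These matches describe the sequence and were not tested against the counts.

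RT1-Da, the alpha chain of the rat DR-like molecule, stood at 2.95 and 2.94 CPM at 6 months and at 20.8 and 37.9 CPM at 12 months. It rose with a log2FC of 3.31 (SE 0.32, edgeR FDR 0.00157). RT1-Db1, the matching beta chain, stood at 3.05 and 1.47 CPM in the younger pools against 16.4 and 22.8 CPM in the older ones (log2FC 3.10, SE 0.33, edgeR FDR 0.00238). Both 12-month pools lay well above both 6-month pools in each case, and pool 8 was the highest of the 4. The chains of the DQ-like molecule moved the same way. RT1-Ba, its alpha chain, rose from 6.66 and 3.28 CPM to 28.9 and 46.5 CPM (log2FC 2.91, SE 0.34, edgeR FDR 0.00364). RT1-Bb, its beta chain, was counted with only 7 and 16 reads at 6 months against 63 and 123 reads at 12 months, or 0.764 and 1.81 CPM against 8.91 and 16.7 CPM. Its log2FC was 3.31 (SE 0.44, edgeR FDR 0.00867).

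Cd74 rose with the chains it escorts. Its level was 5.13 and 4.98 CPM in the 6-month pools and 28.1 and 35.5 CPM in the 12-month pools, a 6.28-fold difference (log2FC 2.65, SE 0.20, edgeR FDR 0.000587). The call of Cd74, RT1-Da, RT1-Db1 and RT1-Ba held in each of the 4 fits that left out 1 library. That of RT1-Bb was lost without pool 8 (log2FC 2.79, edgeR FDR 0.0524). RT1-Da, RT1-Db1, RT1-Ba and RT1-Bb belong to a multigene family, and the counting could have divided reads of similar stretches between them.

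Of the 8 microglial markers in the list, Aif1 and Fcgr3a could be matched and neither passed the test. Aif1, a calcium-binding protein of microglia, stood at 5.67 and 5.10 CPM at 6 months and 8.91 and 8.69 CPM at 12 months (log2FC 0.71, SE 0.23, edgeR FDR 0.237). Fcgr3a, an Fc receptor of myeloid cells, stood at 1.96 and 0.566 CPM against 4.24 and 1.36 CPM, so its ages overlapped. The summed level of the pair ran from 5.66 to 7.64 CPM at 6 months and from 10.1 to 13.2 CPM at 12 months. In bulk tissue more cells of a type and more RNA per cell cannot be told apart, and the part of microglial number in the class II values was not tested.

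Other genes of immune defence and of astrocytes also rose. E9PSV0_RAT, the product of complement component 4, gene 2, is a protein of the complement cascade. It was counted with 9 and 7 reads at 6 months and 46 and 29 reads at 12 months, or 0.982 and 0.793 CPM against 6.51 and 3.94 CPM (log2FC 2.53, SE 0.43, edgeR FDR 0.0296). It was the only matched member of 12 complement symbols. Ifi27, a gene induced by interferon alpha, rose from 5.46 and 4.64 CPM to 14.1 and 12.1 CPM (log2FC 1.37, SE 0.23, edgeR FDR 0.0259), and it was the only matched member of 15 symbols for MHC class I and the interferon response. Gfap, the intermediate filament of astrocytes, rose from 72.6 and 88.1 CPM to 153 and 143 CPM (log2FC 0.88, SE 0.15, edgeR FDR 0.0311). Its libraries were separated by age with little spread within an age, and no other of the 7 astrocyte markers could be matched. All 3 calls were lost without pool 7 (log2FC 2.12, 1.25 and 0.82, edgeR FDR 0.268, 0.184 and 0.181 for E9PSV0_RAT, Ifi27 and Gfap) and without pool 8 (log2FC 2.85, 1.49 and 0.94, edgeR FDR 0.0582, 0.087 and 0.117).

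**Figure D2:**
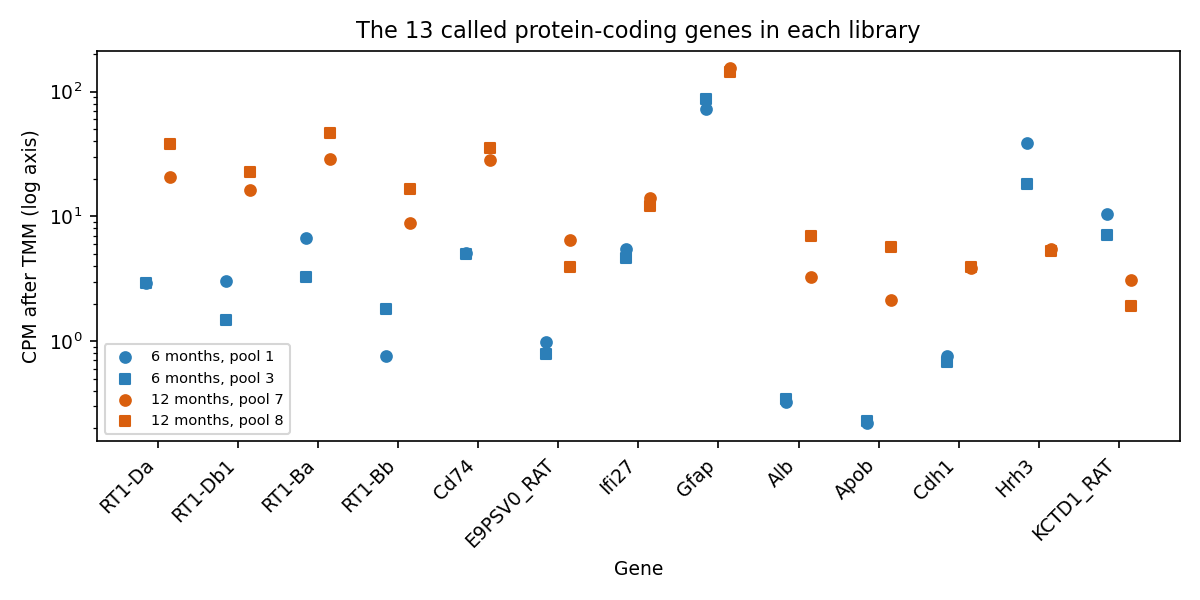
CPM on a log axis of the 13 DE protein-coding genes in each of the 4 libraries, blue for 6 months and orange for 12 months. The groups do not overlap for any of these genes, and Hrh3 and KCTD1_RAT are the 2 that are lower at 12 months.

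Among 21 symbols for plasma proteins, globins, choroid plexus and meninges 7 were matched, and 3 of them rose, against 0.294% of all genes tested. The list median log2FC was 2.40. Here too only genes named in the study's tables could be matched, so neither the count nor the median is independent evidence. The 3 higher genes were counted with few reads at 6 months. Alb, the main protein of blood plasma, had 3 and 3 reads at 6 months and 23 and 51 reads at 12 months (log2FC 3.88, SE 0.59, edgeR FDR 0.0161). Apob, the protein of low-density lipoprotein, had 2 and 2 reads against 15 and 42 reads (log2FC 4.05, SE 0.72, edgeR FDR 0.0335). Pool 8 was the higher of the older pools for both, and both calls were lost without it (log2FC 3.23 and 3.17, edgeR FDR 0.134 and 0.252). Cdh1, the adhesion molecule of epithelia, had 7 and 6 reads against 27 and 29 reads, or 0.764 and 0.679 CPM against 3.82 and 3.94 CPM (log2FC 2.40, SE 0.42, edgeR FDR 0.0335). The call of Cdh1 was lost without pool 7 (log2FC 2.42, edgeR FDR 0.210) and without pool 8 (log2FC 2.38, edgeR FDR 0.220).

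The 4 matched genes of that list that did not pass the test were less uniform. Gc, the vitamin D binding protein of plasma, had 0 reads in both 6-month pools and 2 and 14 reads at 12 months (edgeR FDR 0.137). Sema3b, a secreted guidance cue, had 5 and 4 reads against 21 and 16 reads (log2FC 2.32, SE 0.53, edgeR FDR 0.0949). LOC689064, a beta globin of red cells, stood at 31.4 and 22.6 CPM against 50.1 and 33.0 CPM (log2FC 0.62, SE 0.23, edgeR FDR 0.298). The globin thus differed far less than Alb or Apob, with its lowest older pool only just above its highest younger one. Lrp2, an endocytic receptor of the choroid plexus, stood at 0.218 and 1.70 CPM against 0.990 and 2.04 CPM, so that its ages overlapped. No marker of meninges could be matched, and the part of blood or border tissue in the samples was not tested.

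Of the 97 named protein-coding genes 50 had a log2FC below 0, and 2 (2.06%) were called lower, against 0.858% of all genes tested. Since the names come from the study's tables, this share is not independent evidence. Hrh3, the histamine receptor that restrains transmitter release from nerve endings, stood at 38.7 and 18.1 CPM at 6 months and 5.52 and 5.30 CPM at 12 months (log2FC -2.39, SE 0.35, edgeR FDR 0.0138). The 12-month pools were nearly equal, while the 6-month pools differed from each other and both lay above them. KCTD1_RAT, a protein with a BTB domain, stood at 10.5 and 7.13 CPM against 3.11 and 1.90 CPM (log2FC -1.81, SE 0.34, edgeR FDR 0.0448). Both calls were lost without pool 7 (log2FC -2.43 and -2.21, edgeR FDR 0.0528 and 0.0732) and without pool 8 (log2FC -2.36 and -1.49, edgeR FDR 0.0863 and 0.239).

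The other 4 matched genes of the list for transmitter synthesis and receptors (5 of 18 symbols) did not pass the test. Trh, the precursor of thyrotropin-releasing hormone, stood at 2.73 and 1.13 CPM against 1.41 and 5.57 CPM, and its ages overlapped. Tph2, the neuronal enzyme of serotonin synthesis, stood at 3.93 and 3.51 CPM against 0.424 and 4.48 CPM, so the older pools lay on either side of the younger ones. Qdpr, which regenerates the cofactor of that enzyme, overlapped too, with a log2FC of -0.11 (SE 0.16). Tph1, the form typical of the pineal gland, had at most 8 reads in any of the 4 libraries.

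The matched genes that follow neuronal activity or serve synapses, and those given here from the list of cortical layers, were not called. The immediate early genes (3 of 20 symbols matched) had a median log2FC of -0.28. Egr3, an activity-induced transcription factor, was counted with 92 and 109 reads against 44 and 32 reads (log2FC -1.08, SE 0.26, edgeR FDR 0.113), and its libraries did not overlap. Arc, a synaptic immediate early gene, stood at 58.9, 58.4 and 61.2 CPM in pools 1, 3 and 7 and at 35.3 CPM in pool 8, so that only pool 8 was low. Klf10, a factor induced by TGF-beta, had a log2FC of 0.08 (SE 0.21). Etv1, a factor of deep-layer neurons, stood at 45.6 and 53.3 CPM against 71.6 and 84.9 CPM (log2FC 0.66, SE 0.16, edgeR FDR 0.116). Zbtb20 and Tcf12, which also stood in the list of layer genes, had log2FC values of -0.49 and -0.29.

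Of 20 symbols for synaptic proteins and glutamate receptors 3 were matched, and 0 were DE with edgeR (quasi-likelihood or exact) or DESeq2, while each gave 1 gene an unadjusted p under 0.05. Nptxr, the neuronal pentraxin receptor, stood at 129 and 116 CPM against 98.5 and 79.7 CPM (log2FC -0.46, SE 0.16, edgeR FDR 0.260). Dlg2, a scaffold of the postsynaptic density, and Gria2, a subunit of AMPA receptors, had log2FC values of -0.17 (SE 0.15) and -0.03 (SE 0.17). Hspa1a, the inducible heat shock protein and the only matched one of 13 chaperone symbols, stood at 4.58 and 16.5 CPM against 3.96 and 2.45 CPM (log2FC -1.72, SE 0.56, edgeR FDR 0.235). Pool 3 alone was high for Hspa1a, and without it the log2FC was -0.51. Of 8 iron genes 2 were matched and neither passed, transferrin (Tf) with a log2FC of 0.52 (SE 0.16, edgeR FDR 0.197) and hephaestin (Heph) with -0.67 (SE 0.22, edgeR FDR 0.240). The adhesion and guidance list (5 of 12 symbols) held Cdh1 as its only call, and Alcam, Epha3 and EPHA6_RAT had log2FC values between -0.37 and -0.17.

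The other protein-coding genes that the study names for these ages come from its tests of single transcripts. Here the counts of whole genes in 4 libraries were tested, and none of these genes was called. D3ZVJ6_RAT, an uncharacterised protein, came nearest, with 230 and 221 reads at 6 months against 296 and 323 reads at 12 months (log2FC 0.77, SE 0.15, edgeR FDR 0.0529). Relative to depth its libraries were almost equal within each age. D3ZWX7_RAT (log2FC -0.50, SE 0.16, edgeR FDR 0.240) and Lrrc10b (log2FC -1.35, SE 0.48, edgeR FDR 0.276) were lower in both older pools. F1LXJ8 had 23 and 11 reads at 6 months and 0 and 4 reads at 12 months (edgeR FDR 0.235). Ptplb, LOC100364907, D4A357_RAT and Usp40 had log2FC values between -0.25 and 0.03, none of which passed the test.

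The named small RNAs fell together, apart from microRNA loci. Of the 51 named snoRNAs and Cajal body RNAs, 36 (70.6%) were lower and 0 higher at 12 months by edgeR's quasi-likelihood test, against 0.858% of all genes lower. The median log2FC of the 51 was -2.04, all 51 had a log2FC below 0, and in 50 of them both 12-month pools lay below both 6-month pools. Since these names come from the study's lists of changed transcripts, the counts describe the listed snoRNAs and not snoRNAs in general. No mature snoRNA sequence was at hand, and several names are shared by more than 1 identifier, so such names are followed by the identifier.

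The box H/ACA class was the largest, with 33 members and a median log2FC of -2.14. By edgeR's quasi-likelihood test 25 of them (75.8%) were lower, against 0.858% of all genes tested. The exact test gave 33 lower and DESeq2 27. Over all 15966 genes tested, the same tests called 184, 450 and 240 genes in either direction. The summed level of the class, before TMM scaling, was 9088 and 7442 CPM at 6 months against 2071 and 1901 CPM at 12 months. SNORA48 (ENSRNOG00000045258) fell from 692 and 659 CPM to 157 and 123 CPM (log2FC -2.27, SE 0.17, edgeR FDR 0.000587). The same FDR was reached by SNORA36 (ENSRNOG00000045291), which fell from 124 and 79.6 CPM to 11.0 and 12.9 CPM (log2FC -3.09, SE 0.24). For both, the older pools were close to each other and several-fold below the younger ones. SNORA15 fell with a log2FC of -2.80 (SE 0.22), SNORA4 (ENSRNOG00000035864) with -2.03 (SE 0.18), SNORA70 (ENSRNOG00000034666) with -2.36 (SE 0.22) and SNORA19 (ENSRNOG00000034555) with -3.94 (SE 0.37). These 6 calls held in each of the 4 fits that left out 1 library.

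Some H/ACA members varied between pools of the same age. SNORA62 stood at 1824 CPM in pool 1 and 445 CPM in pool 3, against 73.8 and 79.7 CPM at 12 months (log2FC -3.88, SE 0.55, edgeR FDR 0.0122), and its call was lost without pool 7 (edgeR FDR 0.0588) and without pool 8 (edgeR FDR 0.0821). SNORA84 was the higher in pool 3, with 816 CPM in pool 1 and 1689 CPM in pool 3 against 152 and 226 CPM. Among the 8 members that were not called, SNORA31, SNORA53, SNORA3 (ENSRNOG00000034748) and SNORA21 (ENSRNOG00000035784) had SE values from 0.51 to 0.71, with 6-month pools that differed by more than 3-fold. Their log2FC values lay between -2.73 and -2.05. Their size depended on 1 of the 6-month pools. Without pool 1 the log2FC was -0.79 for SNORA31, -0.67 for this SNORA3 and -0.74 for this SNORA21, and without pool 3 it was -0.89 for SNORA53.

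Of the 15 named box C/D snoRNAs 8 (53.3%) were lower and 0 were higher by edgeR's quasi-likelihood test, against 0.858% of all genes lower. Their median log2FC was -1.61. SNORD116 (ENSRNOG00000034896), a member of the imprinted snoRNA cluster of the Prader-Willi region, fell from 1675 and 1230 CPM to 85.6 and 131 CPM (log2FC -3.74, SE 0.26, edgeR FDR 0.000587). The other 2 identifiers that carry this name differed less and were not called. SNORD116 (ENSRNOG00000035406) stood at 16.8 and 16.1 CPM against 9.05 and 8.15 CPM (log2FC -0.93, SE 0.19, edgeR FDR 0.0680). For SNORD116 (ENSRNOG00000035757) the values were 83.2 and 70.4 CPM against 44.3 and 55.7 CPM (log2FC -0.62, SE 0.17, edgeR FDR 0.161). Reads of such near-identical copies could have been divided between them by the mapping. The next smallest FDR values belonged to SNORD83 (log2FC -1.61, SE 0.15), SNORD52 (-2.26, SE 0.24), SNORD63 (-1.83, SE 0.20), snoU6-77 (-1.62, SE 0.19) and SNORD113 (-1.16, SE 0.17). The call of SNORD113 was lost without pool 8 (log2FC -0.98, edgeR FDR 0.115). SNORD16 was the only one of the 51 snoRNAs and Cajal body RNAs whose ages overlapped, with 182 and 111 CPM against 104 and 135 CPM. U3, a snoRNA classed here with the spliceosomal and other small RNAs, is not among the 51. Its ages overlapped too, with 246 and 89.0 CPM against 114 and 46.9 CPM.

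The 3 named RNAs of Cajal bodies were all lower. SCARNA11 fell from 102 and 70.8 CPM to 5.80 and 4.89 CPM (log2FC -4.01, SE 0.23, edgeR FDR 0.000214), the smallest FDR of any named gene. SCARNA3 fell from 52.3 and 25.5 CPM to 3.25 and 3.67 CPM (log2FC -3.48, SE 0.36, edgeR FDR 0.00217). SCARNA16 fell from 140 and 54.8 CPM to 21.5 and 26.1 CPM (log2FC -2.03, SE 0.37, edgeR FDR 0.0396), a call that was lost without pool 7 (log2FC -1.90, edgeR FDR 0.184) and without pool 8 (log2FC -2.17, edgeR FDR 0.137).

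**Figure D3:**
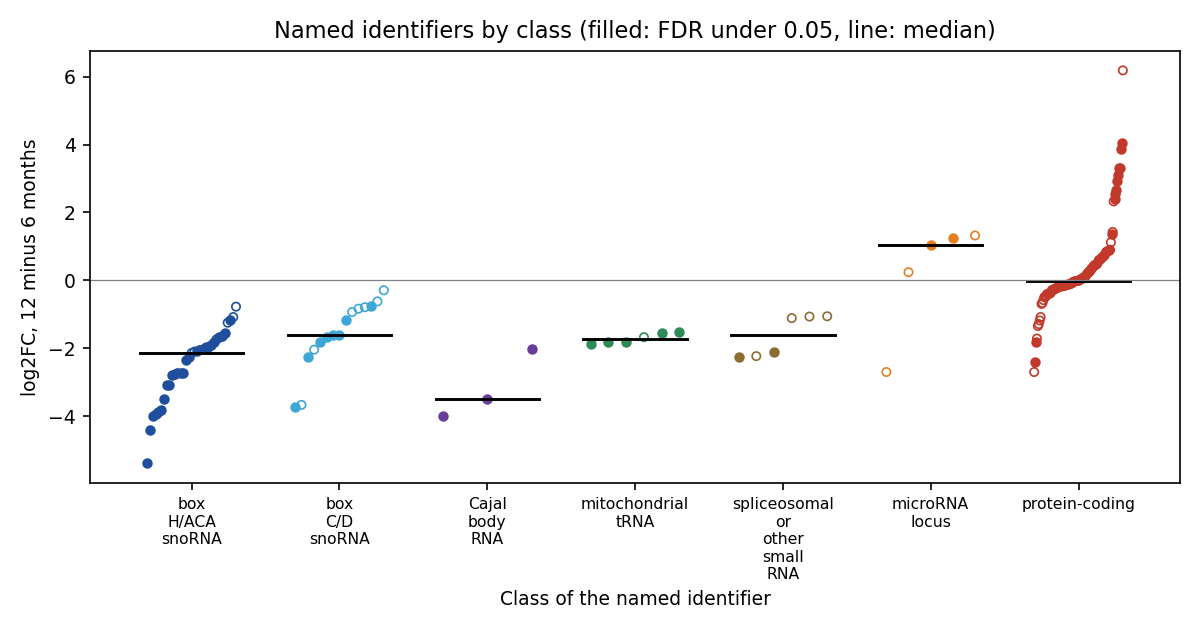
Log2FC (12 minus 6 months) of the named identifiers by class, with filled points for those at an FDR under 0.05, open points for the others and a line at each class median. Each of the 33 box H/ACA, 15 box C/D and 3 Cajal body RNAs lies below 0, while the median of the 97 protein-coding genes is -0.01.

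The named mitochondrial tRNAs fell as well. Of 6 named identifiers 5 were lower, against 0.858% of all genes tested, and the median log2FC was -1.74. These names too come from the study's lists of changed genes and transcripts, so the counts do not describe mitochondrial tRNAs in general. ENSRNOG00000029389 fell from 202 and 175 CPM to 62.8 and 67.5 CPM (log2FC -1.54, SE 0.15, edgeR FDR 0.00158), and ENSRNOG00000029070 from 139 and 125 CPM to 40.9 and 48.8 CPM (log2FC -1.56, SE 0.16, edgeR FDR 0.00201). Pool 8 stood above pool 7 in each of the 5 DE identifiers. ENSRNOG00000029677 fell from 30.1 and 38.3 CPM to 7.64 and 11.5 CPM (log2FC -1.83, SE 0.23, edgeR FDR 0.00624). ENSRNOG00000032609 fell from 128 and 136 CPM to 24.8 and 50.8 CPM (log2FC -1.81, SE 0.28, edgeR FDR 0.0189). ENSRNOG00000032112 fell from 389 and 322 CPM to 60.4 and 133 CPM (log2FC -1.88, SE 0.31, edgeR FDR 0.0261). The 5 calls held in each of the 4 fits that left out 1 library. In 3 of the 6 identifiers pool 8 was at least 2-fold above pool 7, and the sixth, ENSRNOG00000029145, was not called, with 89.1 and 59.9 CPM against 9.62 and 36.9 CPM (log2FC -1.68, SE 0.47, edgeR FDR 0.178).

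Among the 6 spliceosomal and other small RNAs, U7, which guides the trimming of histone mRNA ends, fell from 8.62 and 7.93 CPM to 1.27 and 2.17 CPM (log2FC -2.25, SE 0.33, edgeR FDR 0.0135). The call of U7 was lost without pool 7 (log2FC -1.93, edgeR FDR 0.0804). U2 (ENSRNOG00000041859), a copy of the RNA that recognises the branch point, fell from 5.67 and 10.1 CPM to 1.70 and 1.90 CPM (log2FC -2.12, SE 0.38, edgeR FDR 0.0367), and its call was lost without pool 7 (edgeR FDR 0.190) and without pool 8 (edgeR FDR 0.174). The second U2 identifier, U1, U3 and the vault RNA had log2FC values from -2.23 to -1.06 and were not called.

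MicroRNA loci were the class of small RNAs that held higher calls. Of 5 identifiers 2 were higher and 0 lower by edgeR's quasi-likelihood test, against 0.294% higher and 0.858% lower among all genes tested. At an unadjusted quasi-likelihood p under 0.05 there were 3 higher and 1 lower, as by the exact test. DESeq2 gave 3 higher and 0 lower. The 5 names come from the study's list of changed transcripts, so the counts do not describe microRNA loci in general. ENSRNOG00000045415 rose from 1192 and 977 CPM to 2280.1 and 2208 CPM (log2FC 1.05, SE 0.18, edgeR FDR 0.0272), and ENSRNOG00000044121 from 28.6 and 20.3 CPM to 61.8 and 53.8 CPM (log2FC 1.24, SE 0.19, edgeR FDR 0.0190). Both calls were lost without pool 7 (edgeR FDR 0.141 and 0.0923) and without pool 8 (edgeR FDR 0.117 and 0.056). The most abundant of them, ENSRNOG00000044316, was about 2.50-fold higher but was not called (log2FC 1.32, SE 0.27, edgeR FDR 0.0673). Mir344a-2, the only locus with a specific name, had 19 and 15 reads at 6 months and 2 and 2 reads at 12 months (edgeR FDR 0.105).

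The differences in small RNAs ran beside a difference in library composition. Among the libraries compared, those of 6 months had the most named snoRNA reads. They also had the larger share of reads on no annotated gene and the more gene reads. In the 28-month pools 4, 5 and 6 that share was 50.4, 60 and 53.7%. Their named box H/ACA RNAs summed to 4121, 3539 and 2995 CPM before TMM scaling, and their gene reads were 8648997, 6513376 and 7057170. The shared file had 59.6%, 3183 CPM and 6761052 gene reads. The part of composition and depth in the small RNA differences was not tested, and with 2 pools per age composition and depth cannot be told apart from age.

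Most DE identifiers had no name. ENSRNOG00000035717 fell from 740 and 776 CPM to 59.3 and 58.8 CPM (log2FC -3.68, SE 0.16), and ENSRNOG00000034898 from 711 and 762 CPM to 61.0 and 57.3 CPM (log2FC -3.64, SE 0.16), both at an edgeR FDR of 2.48e-05, the smallest of all genes. ENSRNOG00000043888 rose from 35.1 and 27.0 CPM to 82.5 and 88.2 CPM (log2FC 1.46, SE 0.17, edgeR FDR 0.00385). ENSRNOG00000044070 rose from 1548 and 699 CPM to 11749 and 7595 CPM (log2FC 3.11, SE 0.39, edgeR FDR 0.00624). It was the most abundant of the higher genes, and all 4 calls held in each fit that left out 1 library.

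Some DE identifiers may not be independent measurements. This was judged from counts alone, and no sequences were compared. The counts of the pair with the smallest FDR, ENSRNOG00000035717 and ENSRNOG00000034898, agreed within sampling noise over the 8 distinct files. Among the 120 DE identifiers with at least 1000 reads over these files, 41 fell into 12 groups whose members were linked by such agreement (a chi-square under 26.12 over 8 files), 32 of them lower and 9 higher. The largest group held 10 identifiers, all lower, with 212 to 224 and 201 to 219 CPM in the 6-month pools and 43.0 to 52.3 and 23.8 to 31.4 CPM in the 12-month pools. The values of such sets are uncertain singly, since the mapping could have divided reads between near-identical copies. Counting each group once would leave 155 DE identifiers, 113 lower and 42 higher. All but 2 of the 41 have no name, and those 2 (SNORA4, ENSRNOG00000034321, and snoU6-77) bear different names.

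The number of DE genes depended on which files and genes entered the fit. Leaving out 1 library gave from 101 to 614 DE genes, the fewest without pool 8 and the most without pool 3. In these fits the age with 1 library took its spread from the other age. Of the 184 genes, 73 were DE in all 4 of them, 6 of the 47 higher ones and 67 of the 137 lower ones. With the identical files kept as labelled, 3 libraries against 3, edgeR's quasi-likelihood test called 0 genes, and 526 genes reached an unadjusted p under 0.05. The same counts then stood in both ages, which narrows their differences, so this fit does not measure how firm the 184 calls are. With every gene that had at least 1 read, 2 of 20625 genes were DE, and with at least 10 reads in each library 140 of 11848.

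**Figure D4:**
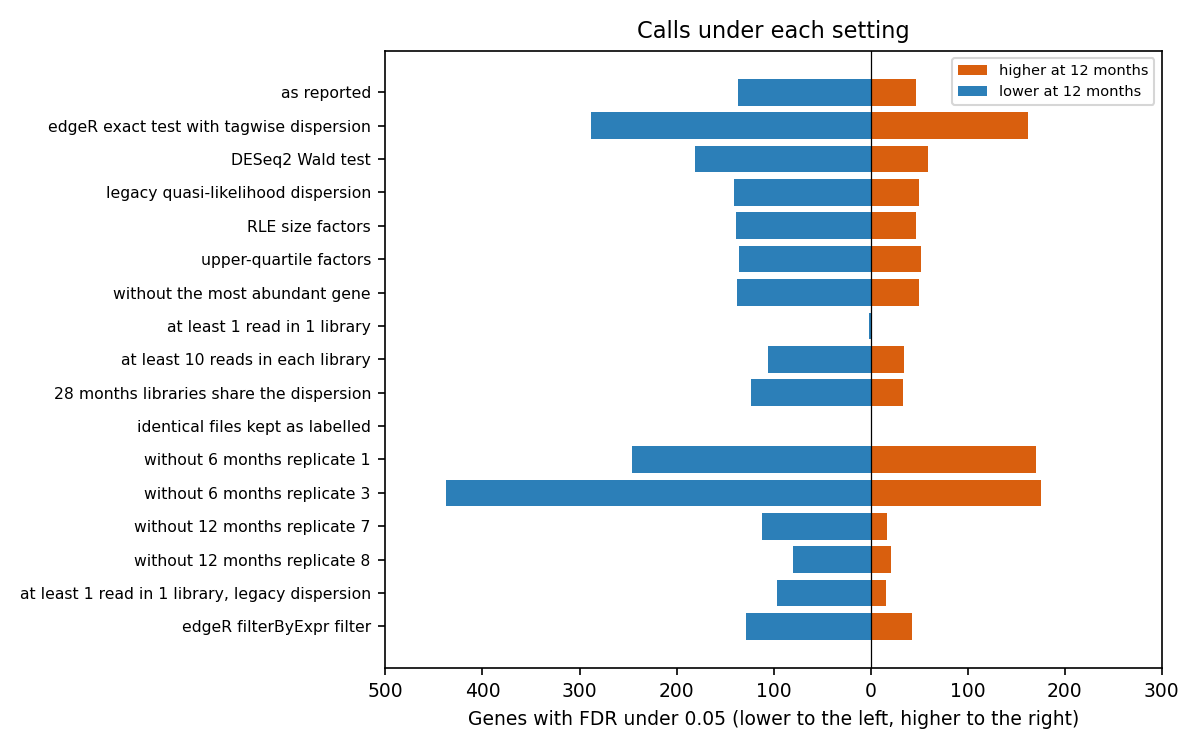
Number of DE genes under each setting, with genes lower at 12 months drawn to the left of 0 and genes higher at 12 months to the right. The reported fit gives 137 and 47, the fit with the identical files kept as labelled gives 0 and 0, and the fit without pool 3 gives 438 and 176.

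The levels of the DE genes in the other files are set side by side here on a scale over the 8 distinct files, with no test. The shared file, labelled both 6 and 12 months, had 23.3 CPM of Cd74, 24.98 CPM of RT1-Da and 4.75 CPM of Hrh3. On this scale the 6-month pools had 5.12 and 5.05 CPM of Cd74, and the 12-month pools 28.3 and 35.9 CPM. For Cd74 the 3 pools of 28 months had 7.19, 12.8 and 6.94 CPM, above both 6-month pools and below both 12-month pools. RT1-Da showed the same order, with 7.31, 9.94 and 5.73 CPM at 28 months. Hrh3 had 11.1, 17.1 and 7.39 CPM in the 28-month pools, between the other ages.

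Values of 3 small RNAs at 28 months are given in the same way. SNORD116 (ENSRNOG00000034896) had 1945, 349 and 613 CPM in the 3 pools of 28 months and 312 CPM in the shared file, so that 1 of the oldest pools lay above both 6-month pools. SCARNA11 had 29.5, 14.8 and 9.81 CPM at 28 months and 10.7 CPM in the shared file. SNORA48 (ENSRNOG00000045258) had 363, 422 and 187 CPM at 28 months, between the ages compared, and 129 CPM in the shared file. Over all DE genes, the shared file lay on the 12-month side of the geometric mean of the 2 ages for 38 of the 47 higher genes and 91 of the 137 lower ones. The 28-month pools lay on that side for 9, 22 and 25 of the higher genes and for 48, 94 and 84 of the lower genes. These counts describe levels only, since the age of the shared file cannot be taken from them.

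**Figure D5:**
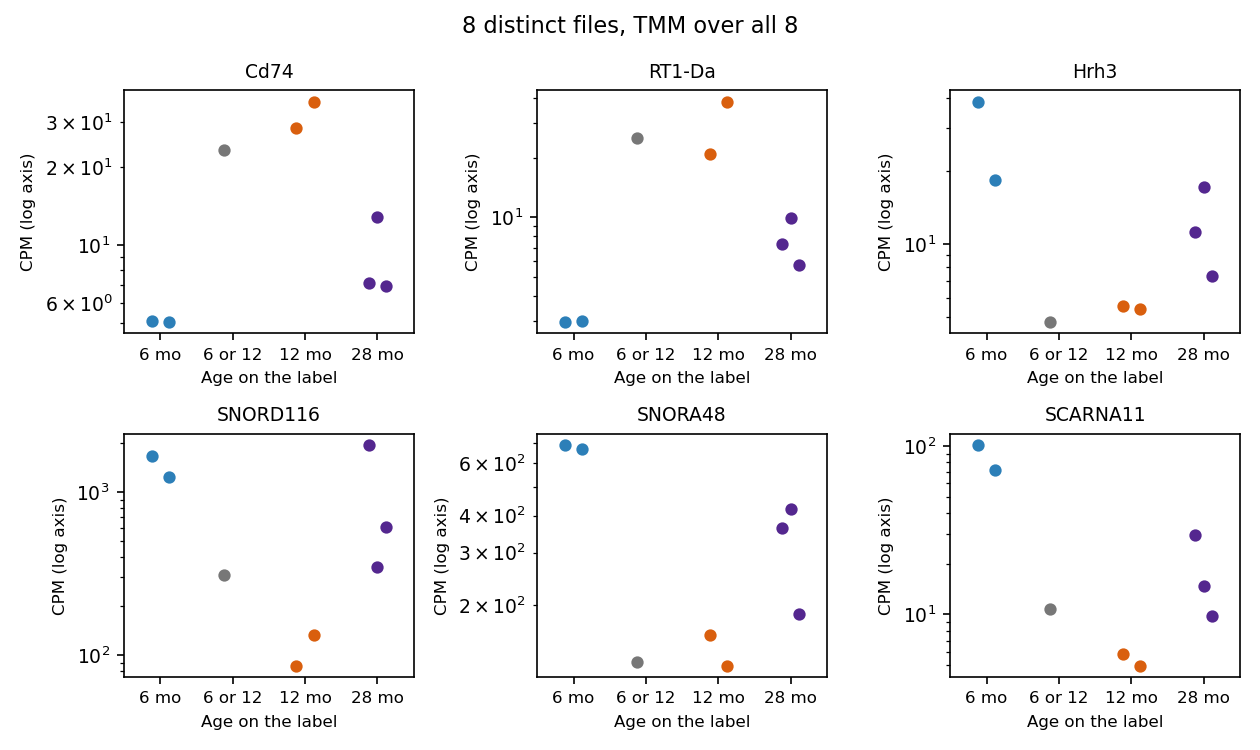
CPM on a log axis of Cd74, RT1-Da, Hrh3, SNORD116 (ENSRNOG00000034896), SNORA48 (ENSRNOG00000045258) and SCARNA11 in the 8 distinct files, with each point a library, placed by the age on its label and with the shared file as a group of its own. The 28-month pools lie between the 6- and 12-month pools for Cd74, RT1-Da, Hrh3, SNORA48 and SCARNA11, and 1 of them lies above both 6-month pools for SNORD116.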

How the data were processed

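SOLiD reads of cortical RNA were mapped by the authors with Bowtie to the Ensembl rat genome (rn4 in the submitters' notes) and counted per gene with HTSeq, and the deposited values are raw counts. Program versions and the strand setting are not given in the sources used here, so reads shared by overlapping, antisense or near-identical genes may be divided or lost. The last 5 lines of each file, which name no gene, were left out of library sizes.

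Genes that reached 5 reads in 1 or more of 4 libraries were tested with the quasi-likelihood test of edgeR 4.0.16 (R 4.3.3) after TMM, at a Benjamini-Hochberg FDR of 0.05. Alternatives were the exact test (prior.n 7, proportion 0.5, grid length 500), DESeq2 1.42.0, the legacy dispersion, other scalings and filters, and leaving out each library. The fits were tested on simulated data.

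Names came from the study's tables, since the RefSeq table (GRCr8) paired 0 identifiers. Named in the text are all DE genes with a name (of small RNAs, the 6 of smallest FDR per class), the genes the study names for these ages, list members by smallest FDR, and 2 unnamed genes per direction. SNORA62, SNORA84 and those beyond this rule were chosen after their values were seen. A gene of the layer list is not reported here. Members and lists were chosen with earlier results of these data known.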

Additional observations from a re-analysis of the deposited data

Results flagged for a closer look

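The groups compared held 2 libraries each, too few for a test of single outlying samples. Signal in the file that the comparison left out, the one deposited for both 6 and 12 months, was looked for among genes with at least 20 reads there and at least 4 times the CPM of any of the other 7 files. Tph1 had 147 reads in this file and at most 8 in any other. Of 3 identifiers without a name, ENSRNOG00000019296 had 20 reads against at most 4, ENSRNOG00000034799 had 23 reads against at most 4, and the third had 31 reads against at most 7. These were chosen after their values were seen.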

How the results depend on the processing

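The 184 DE genes kept their direction under each alternative fixed with the design in which they were tested. The number of DE genes (47 higher and 137 lower as reported, 58 of them named) rose to 450 (162 and 288, 88 named) with edgeR's exact test. It fell to 2 (0 and 2, 0 named) with every gene that had at least 1 read. With the identical files kept as labelled, so that the same counts stood in both ages, it was 0 (0 and 0, 0 named). Leaving out 1 library gave from 101 to 614 DE genes, from 17 to 176 higher, from 80 to 438 lower and from 32 to 88 named. With at least 1 read and the legacy dispersion, a pair of choices made after seeing the data, 112 genes were DE, 16 higher and 96 lower. The DESeq2 Wald test (240), the legacy dispersion (191), RLE (186), upper-quartile factors (188), scaling without the most abundant gene (188), at least 10 reads in each library (140), the 28-month libraries in the fit (156) and filterByExpr (171, added after seeing the data) stayed within 1.5 times the reported count. Of the genes given singly in this text, 12 that were not called changed sign when a library was left out. Further identifiers with a paired name, not given singly here, also changed sign and are not among the 12. Ranges in brackets run from the lowest to the highest log2FC over the 4 fits that left out 1 library. In each range, the end of opposite sign to the reported log2FC came from the fit without the pool named. The sign changed for Klf10 (log2FC from -0.1146 to 0.2466), LOC100364907 (from -0.4533 to 0.1458) and D4A357_RAT (from -0.1627 to 0.04287) without 12-month pool 7. Qdpr (from -0.2479 to 0.01224) and Tph2 (from -3.085 to 0.2607) also changed sign without 12-month pool 7. Usp40 changed sign without 6-month pool 3 (-0.06) and without 12-month pool 8 (from -0.192 to 0.2088). Trh (from -0.447 to 1.621) and Gria2 (from -0.222 to 0.13) changed sign without 12-month pool 8. So did EPHA6_RAT (from -0.3889 to 0.02345) and Arc (from -0.7396 to 0.06458) without 12-month pool 8. Lrp2 (from -0.1575 to 2.72) and SNORD16 (from -0.6016 to 0.1056) changed sign without 6-month pool 1. The cause of these differences was not tested. No paired analysis was possible because the ages share no pool number. The most abundant gene took about as many reads as all others together, and under 20 reads few genes could be called.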
